A study of Homo sapiens with 2 samples.

Results

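The genes of the subunits of RNA polymerases I, II and III were examined in T24/R cells, an adherent epithelial line from the human urinary bladder, that had been given 1600 nM THZ1 or DMSO alone for 6 h. THZ1 is a covalent inhibitor of CDK7, the kinase within TFIIH, and inhibits the elongation kinases CDK12 and CDK13 as well. The members are all protein-coding genes whose symbol is POLR1, POLR2 or POLR3 followed by a letter, 34 of the 58884 gene IDs in the count tables. By prefix, 8 are Pol I genes, 16 are Pol II genes and 10 are Pol III genes. Both groups were the same cell line, with 1 library of polyadenylated RNA each and no replicates, so no p-value is given and differences between cultures were not measured. The labels do not say how T24/R differs from T24 cells.

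Pol I makes the precursor of the large ribosomal RNAs, Pol II makes mRNAs and many noncoding RNAs, and Pol III makes tRNAs and other short RNAs. Each enzyme has its own pair of large subunits that form the active centre. The small subunits encoded by POLR2E, POLR2F, POLR2H, POLR2K and POLR2L are built into all of the enzymes, and those encoded by POLR1C and POLR1D into Pol I and Pol III. The largest Pol II subunit, encoded by POLR2A, carries the C-terminal repeat domain that CDK7, CDK12 and CDK13 phosphorylate.

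The THZ1 library held 18313827 counts over 23528 genes and the DMSO library 18445831 counts over 23986 genes. Each log2 ratio divides THZ1 by DMSO counts after TMM scaling, with 0.5 added to each count, and their 95% intervals are exact and cover counting error only. Genes reaching 30 counts in THZ1 or in DMSO were tested. Genes at least 2-fold apart whose interval left out equality were called lower or higher. The marker counts of the line were uneven: the epithelial keratin genes KRT18 (494 counts in THZ1 and 696 in DMSO) and KRT8 (100 in THZ1 and 77 in DMSO) were detected and not called. Of 14 epithelial and urothelial markers 4 passed the minimum, and of these FOXA1 was called lower (21 counts in THZ1 and 129 in DMSO; −2.07). TP63 had 34 counts in THZ1 and 61 in DMSO, and UPK1B and UPK3A were listed at 0 in both libraries. Leukocyte markers summed to 1 count in THZ1 and 5 in DMSO, endothelial markers to 3 in each, and fibroblast markers to 95 in THZ1 and 73 in DMSO, of which LUM (69 in THZ1 and 34 in DMSO) was called higher, at 1.54 on the TMM scale and −0.15 on the mitochondrial reference. The part of such cells in the results was not tested.

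Relative to the bulk of their transcriptome, THZ1-treated cells had less RNA of the large, catalytic subunit genes of Pol I and Pol III than DMSO-treated cells under each scaling tried. Of the 34 members, 31 passed the count minimum, and of these 8 were called lower, 3 higher and 20 neither. Among all 12457 tested genes 21.3% were called lower and 9.7% higher, and among tested protein-coding genes 22% and 7.61%. The lower members were 4 of 8 Pol I genes (POLR1A, POLR1B, POLR1C and POLR1G), 3 of 10 Pol III genes (the large subunit genes POLR3A and POLR3B among them) and 1 of 13 tested Pol II genes (POLR2D). The higher members were POLR2I, POLR3G and POLR3GL, none of which was called when the libraries were scaled to total counts or to mitochondrial mRNAs. The median ratio was −0.74 over the Pol I genes, −0.67 over the Pol III genes and 0.19 over the Pol II genes, beside −0.03 over all tested genes. In these bulk libraries fewer cells with a transcript and less of it per cell cannot be told apart.

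**Figure D1:**
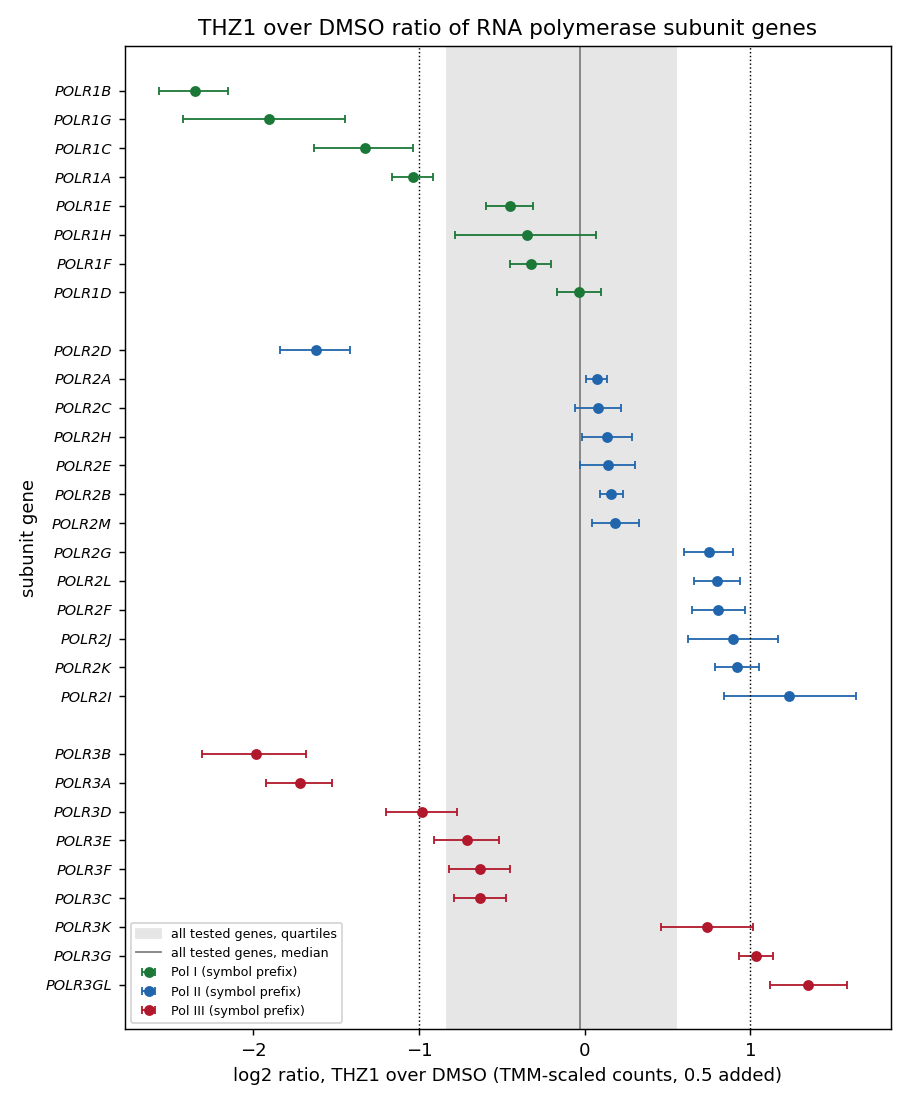
Log2 ratio, THZ1 over DMSO (horizontal axis), for 30 of the 31 tested subunit genes, with 95% counting intervals, coloured by polymerase; the grey band and line are the quartiles and the median of all tested genes, and the dotted lines mark 2-fold. All 8 Pol I genes lie below 0, 12 of 13 Pol II genes lie above 0 (6 with total counts and 0 with mitochondrial mRNAs as the scale), and the Pol III genes run from −1.98 (POLR3B) to 1.35 (POLR3GL).

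Some directions turn on the scale chosen for the libraries. All 8 Pol I genes had ratios below 0 under each scaling tried. The TMM intervals of POLR1D (−0.17 to 0.10) and POLR1H (−0.78 to 0.07) include 0, and POLR1D was at −0.003 with DESeq2 size factors. Of the 13 Pol II genes 12 had ratios above 0, but 10 did with TMM factors from all genes, 6 with total counts and 0 with the mitochondrially encoded mRNAs. Of the 10 Pol III genes 7 had ratios below 0 under every scaling except the mitochondrial reference, where all 10 did. Scaling to total counts shifts every ratio by −0.51 and scaling to mitochondrial mRNAs by −1.69, which moves the median of all tested genes to −0.54 and −1.72. With total counts 12 of the 31 tested members were called lower, beside 34.2% of all tested genes, and with mitochondrial mRNAs 22 were, beside 80.3%. On these scales 0 members were called higher, beside 2.95% of all tested genes with total counts and 0.706% with mitochondrial mRNAs. A difference between 2 genes, or between the medians of 2 polymerases, is free of this choice because both move together. The Pol I median was 0.93 below the Pol II median, the Pol III median 0.86 below it, and the Pol I and Pol III medians were 0.07 apart. Transcript length was spread unevenly over the polymerases, as given below, and its part in these gaps was not tested.

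POLR1B, the second-largest Pol I subunit gene, had 217 counts in THZ1 and 1597 in DMSO, and was 5.10-fold lower in THZ1 (−2.35, −2.57 to −2.15), the lowest ratio among tested members. The gene of the largest Pol I subunit, POLR1A, had 719 counts in THZ1 and 2121 in DMSO and was 2.05-fold lower (−1.03, −1.16 to −0.91), just past the 2-fold limit. In Pol III, POLR3A had 246 counts in THZ1 and 1167 in DMSO (−1.72, −1.93 to −1.52). Its partner POLR3B had 101 counts in THZ1 and 577 in DMSO (−1.98, −2.31 to −1.68). These 4 genes were all called lower under each scaling tried.

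The corresponding Pol II genes had nearly equal TMM-scaled counts in both libraries. POLR2A had 3620 counts in THZ1 and 4954 in DMSO (0.07, 0.01 to 0.13), and POLR2B, which encodes the second-largest subunit, had 3082 in THZ1 and 3967 in DMSO (0.16, 0.09 to 0.23). With total counts these ratios are −0.44 and −0.35, and with mitochondrial mRNAs −1.62 and −1.53, where both genes are called lower. POLR2B shares 12.4% of its exonic bases with NOA1 and IGFBP7 on the opposite strand, and POLR2A shares none. The difference between the ratio of POLR1B and that of POLR2B was −2.51 (−2.74 to −2.30), and that between POLR3B and POLR2B was −2.14 (−2.48 to −1.83). Against POLR2A, the difference was −1.11 (−1.25 to −0.97) for POLR1A and −1.79 (−2.01 to −1.58) for POLR3A. These intervals are exact conditional intervals of counting error and exclude 0.

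The balance between large subunit genes differed between the libraries for POLR1B against POLR2B and, within an enzyme, for the Pol I pair only. TPM divides counts by exonic length and sets each library to 1 fixed total, so levels are compared here within a library. POLR1B RNA stood at 4.82 TPM in THZ1 and 48.1 TPM in DMSO, and POLR2B RNA at 73.4 TPM in THZ1 and 128 TPM in DMSO. The POLR1B level was thus 0.0656 of the POLR2B level in THZ1 and 0.375 in DMSO. Within Pol I, POLR1A stood at 1.55 times the level of POLR1B in THZ1 and at 0.622 times in DMSO. The order of the pair thus turned round per exonic length. In reads, POLR1A held the larger share of the pair in both libraries, at 76.8% in THZ1 and 57.0% in DMSO. POLR2A stood at 0.830 times the level of POLR2B in THZ1 and 0.882 times in DMSO. The difference in ratio was −0.09, with an interval that includes 0 (−0.18 to 0.004). POLR3A stood at 1.33 times the level of POLR3B in THZ1 and 1.10 times in DMSO, a difference in ratio of 0.26 with an interval that includes 0 (−0.10 to 0.65).

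On GRCh38, POLR1A (ENSG00000068654) spans chromosome 2 from 86020216 to 86106155 and POLR1B (ENSG00000125630) chromosome 2 from 112541915 to 112577150. POLR3A (ENSG00000148606) spans chromosome 10 from 77969251 to 78029545 and POLR3B (ENSG00000013503) chromosome 12 from 106357658 to 106510198. POLR2A (ENSG00000181222) spans chromosome 17 from 7484366 to 7514616 and POLR2B (ENSG00000047315) chromosome 4 from 56977722 to 57031168. The 150 bases before the RefSeq start (GRCh38.p14) of these genes, and of POLR2D and POLR3GL as a lower Pol II gene and the member with the highest ratio, are given because the large subunit genes of Pol I and Pol III were lower and those of Pol II were not. Capitals mark matches, on either strand, to CCGGAAG (ETS), the NRF1 palindrome, GGGCGG (SP/KLF), CACGTG (E-box), CCAAT (the CCAAT box), TATAAA (the TATA box), AAGATGGC (YY1) or TGACGTCA (CRE).
POLR1A (chr2:86105887-86106036, minus strand): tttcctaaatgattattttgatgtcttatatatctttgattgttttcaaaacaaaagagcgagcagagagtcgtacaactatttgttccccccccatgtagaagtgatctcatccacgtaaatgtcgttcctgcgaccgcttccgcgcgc
POLR1B (chr2:112541886-112542035, plus strand): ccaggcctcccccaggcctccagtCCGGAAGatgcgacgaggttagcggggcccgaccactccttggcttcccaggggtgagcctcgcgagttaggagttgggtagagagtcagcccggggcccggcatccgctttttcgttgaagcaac
POLR3A (chr10:78029516-78029665, minus strand): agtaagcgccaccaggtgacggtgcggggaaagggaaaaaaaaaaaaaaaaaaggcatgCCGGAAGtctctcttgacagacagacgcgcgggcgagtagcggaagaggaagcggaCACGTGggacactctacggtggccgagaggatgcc
POLR3B (chr12:106357598-106357747, plus strand): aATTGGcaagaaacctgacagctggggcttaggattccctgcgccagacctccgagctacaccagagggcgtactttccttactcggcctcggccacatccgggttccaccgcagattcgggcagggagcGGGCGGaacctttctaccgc
POLR2A (chr17:7484216-7484365, plus strand): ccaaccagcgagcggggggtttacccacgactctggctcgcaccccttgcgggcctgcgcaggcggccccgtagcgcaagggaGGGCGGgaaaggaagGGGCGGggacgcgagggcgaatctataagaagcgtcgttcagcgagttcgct
POLR2B (chr4:56978746-56978895, plus strand): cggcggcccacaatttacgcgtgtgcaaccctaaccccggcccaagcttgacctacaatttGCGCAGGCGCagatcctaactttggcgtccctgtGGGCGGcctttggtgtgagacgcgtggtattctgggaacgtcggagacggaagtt
POLR2D (chr2:127858156-127858305, minus strand): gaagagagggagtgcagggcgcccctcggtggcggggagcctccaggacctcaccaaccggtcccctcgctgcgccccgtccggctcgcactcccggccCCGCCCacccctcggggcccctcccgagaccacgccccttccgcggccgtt
POLR3GL (chr1:145964540-145964689, plus strand): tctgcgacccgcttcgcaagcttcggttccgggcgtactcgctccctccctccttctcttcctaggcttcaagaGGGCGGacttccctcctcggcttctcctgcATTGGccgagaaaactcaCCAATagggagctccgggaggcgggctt

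Promoter sequences were found for 24 of the 33 member symbols. The GGGCGG box occurred in the window of 8 of 10 Pol II genes, 2 of 7 Pol I genes and 5 of 7 Pol III genes, and in 36.8% of all 35116 promoters. The NRF1 motif occurred in 4 of the Pol II genes and in 0 of the Pol I and Pol III genes, beside 4.29% of all promoters, while CCAAT occurred in 0 Pol II, 2 Pol I and 3 Pol III genes, beside 23.5%. POLR2J2, which was not tested, is among the Pol II genes with the GGGCGG box and among those with the NRF1 motif. ETS matches were spread over 2 Pol I, 3 Pol II and 2 Pol III genes (6.85% of all promoters). The E-box occurred in 2 member promoters, POLR1G and POLR3A (4.57% of all), CRE in 1, POLR1H (1.4%), and TATAAA and AAGATGGC in none of the 24 (6.71% and 0.814%). Of the large subunit genes, POLR1A had no match and the lowest GC content in the window (42%), while the POLR2A window held the GGGCGG box at 68% GC. The windows were placed by RefSeq starts, and those of POLR1A and POLR2B lie wholly inside the gene spans given above. The POLR1B, POLR3A and POLR3B windows lie partly inside their spans, and the POLR2A window lies outside. Matches and GC contents of the large subunit genes are therefore not compared at the same position of each gene. The ETS match occurred in POLR1B, POLR1C and POLR3A, which were called lower, in POLR2C, POLR2F and POLR3C, which were not called, and in POLR2J2, which was not tested. These matches describe letters in the window, and binding was not measured.

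**Figure D2:**
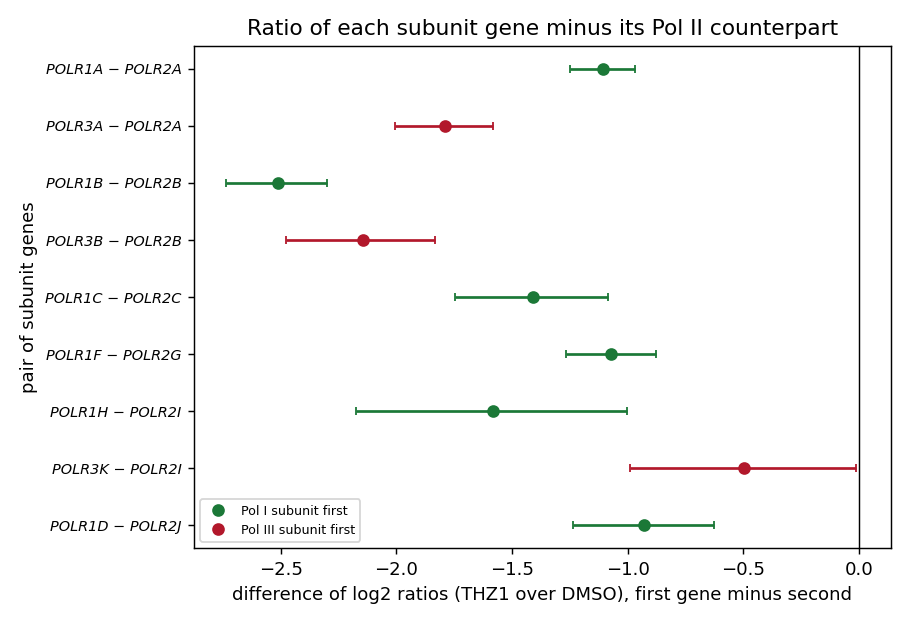
Difference of the log2 ratio (THZ1 over DMSO) between a Pol I or Pol III subunit gene and the Pol II gene of the corresponding subunit, with exact 95% counting intervals. All 9 differences lie below 0, from −2.51 (POLR1B minus POLR2B) to −0.50 (POLR3K minus POLR2I). POLR2D is in none of the pairs.

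The same held for the other pairs of corresponding subunits that were compared. There were 9 pairs of a Pol I or Pol III gene with its Pol II counterpart, 6 from Pol I and 3 from Pol III. All 9 differences were below 0 and all 9 counting intervals excluded 0. POLR2D (−1.62) was in none of these pairs, and its ratio lay below that of CRCP (−0.58), a Pol III subunit gene outside the POLR3 names. The alpha-like subunits, on which the enzymes assemble, are encoded by POLR1C and POLR1D in Pol I and Pol III and by POLR2C and POLR2J in Pol II. POLR1C had 121 counts in THZ1 and 438 in DMSO (−1.33, −1.63 to −1.04), whereas POLR2C had 763 in THZ1 and 1038 in DMSO (0.08, −0.06 to 0.22), a difference of −1.41 (−1.74 to −1.09). POLR1D had 751 counts in THZ1 and 1106 in DMSO (−0.03, −0.17 to 0.10) and POLR2J had 260 in THZ1 and 201 in DMSO (0.90, 0.63 to 1.17), a difference of −0.93 (−1.24 to −0.62). POLR1C shares 18.2% of its exonic bases with exons of other genes, all on the opposite strand and XPO5 among them, and without a stated strand setting such reads cannot be told apart.

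The stalk, which in each enzyme contacts the emerging RNA, held genes on both sides within Pol II. POLR2D had 234 counts in THZ1 and 1038 in DMSO and was 3.08-fold lower (−1.62, −1.83 to −1.42). It spans chromosome 2 from 127843551 to 127858157 (ENSG00000144231). Its dimer partner POLR2G had 804 counts in THZ1 and 689 in DMSO (0.75, 0.60 to 0.90), above 0 but within 2-fold. Of the reads of both genes, POLR2D took 22.5% in THZ1 (95% Clopper-Pearson interval 20.0 to 25.2) and 60.1% in DMSO (57.8 to 62.4), and the difference in their ratios was −2.37 (−2.63 to −2.12). Per length, POLR2D fell to 0.107 of the POLR2G level in THZ1, against 0.554 in DMSO. The Pol I stalk gene POLR1F had 846 counts in THZ1 and 1525 in DMSO (−0.32, −0.45 to −0.20), and its ratio differed from that of POLR2G by −1.07 (−1.27 to −0.88).

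**Figure D3:**
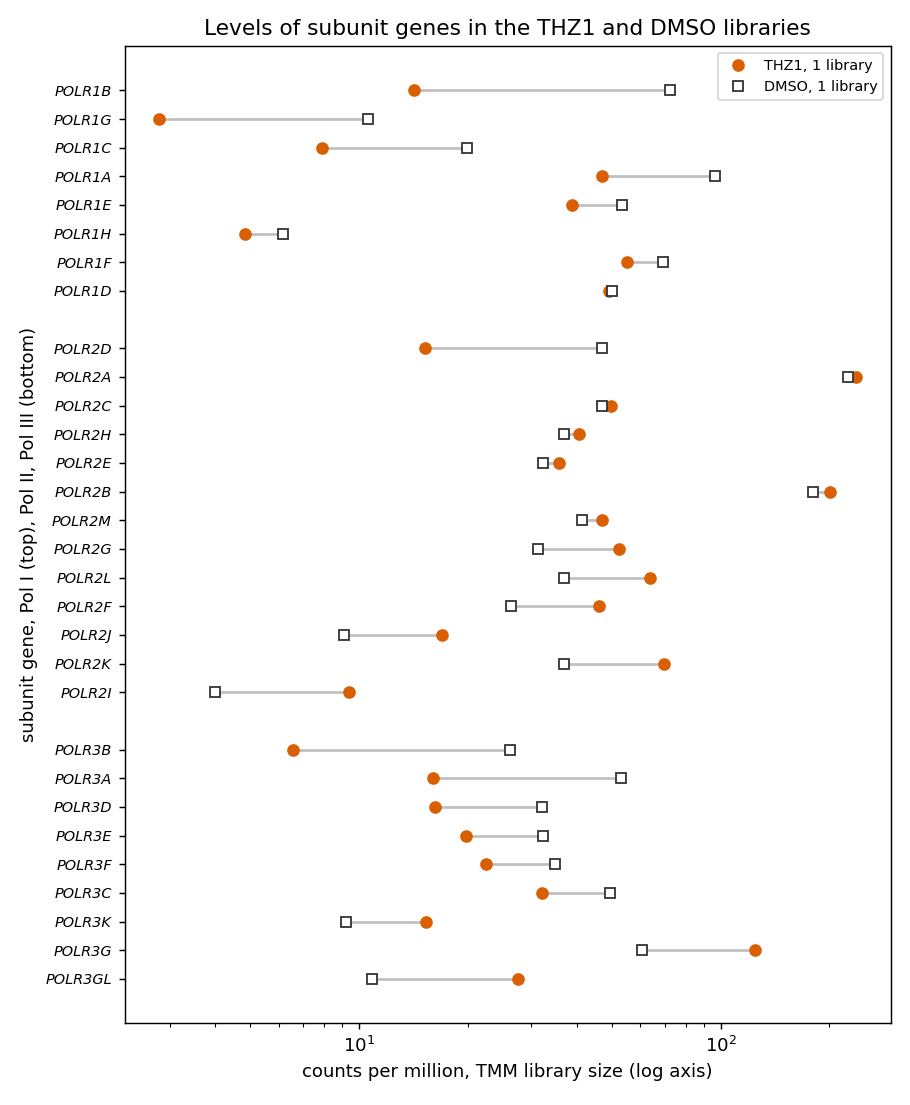
CPM on the TMM library sizes (horizontal log axis) of 30 of the 31 tested subunit genes in the THZ1 library (filled circles) and the DMSO library (open squares). POLR2A and POLR2B, at 236 and 201 CPM in THZ1 against 225 and 180 in DMSO, are the most counted members, and the gap between libraries is widest for POLR1B, at 14.2 CPM in THZ1 and 72.4 in DMSO.

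The TFIIF-like pairs of Pol I and of Pol III, 4 genes in all, had ratios below 0 under each scaling tried. POLR1G had 43 counts in THZ1 and 234 in DMSO (−1.91, −2.42 to −1.44), and its partner POLR1E had 596 in THZ1 and 1174 in DMSO (−0.45, −0.60 to −0.31), a difference of −1.45 (−1.99 to −0.97). POLR1G shares 45.1% of its exonic bases with other genes, mostly with ERCC1 on the opposite strand (628 counts in THZ1 and 799 in DMSO), so its counts are uncertain. POLR3D had 248 counts in THZ1 and 705 in DMSO (−0.98, −1.20 to −0.77), just short of the 2-fold limit, and POLR3E had 303 in THZ1 and 714 in DMSO (−0.71, −0.91 to −0.52). The POLR3D and POLR3E ratios differed by −0.27, with an interval that includes 0 (−0.56 to 0.02).

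The TFIIE-like heterotrimer, which is found in Pol III and helps it open promoters, held genes on both sides of 0, except on the mitochondrial reference, where all lay below it. POLR3C had 491 counts in THZ1 and 1093 in DMSO, and POLR3F had 344 in THZ1 and 768 in DMSO, both with a ratio of −0.63. Their difference was 0.00 with an interval of −0.24 to 0.25. The remaining position is filled by either of the paralogues POLR3G and POLR3GL, of which POLR3G is known from stem and tumour cells and POLR3GL is widely expressed. POLR3G had 1907 counts in THZ1 and 1340 in DMSO (1.03, 0.93 to 1.14) and POLR3GL had 423 in THZ1 and 239 in DMSO (1.35, 1.12 to 1.58). Both were called higher, at 2.05-fold and 2.54-fold, with ratios of 0.52 and 0.83 with total counts and −0.66 and −0.34 on the mitochondrial reference.

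POLR3G was the more abundant of these paralogues in both libraries. POLR3G took 81.8% of the reads of the pair in THZ1 (80.2 to 83.4) and 84.9% in DMSO (83.0 to 86.6). The difference in ratio of POLR3G from POLR3GL was −0.31 (−0.57 to −0.06). Per exonic length, POLR3G stood at 66.7 TPM in THZ1 and 63.6 TPM in DMSO, and POLR3GL at 33.0 TPM in THZ1 and 25.3 TPM in DMSO. POLR3GL (ENSG00000121851, chromosome 1 from 145964702 to 145978848) shares 21.2% of its exonic bases with another annotated coding gene that was listed at 0 in both libraries. POLR3G had the highest level of the Pol III genes in THZ1, whereas POLR3C, at 24.7 TPM in THZ1 and 74.7 in DMSO, was the highest in DMSO. The highest and the lowest Pol I gene lay 20.2-fold apart in THZ1 and 12.6-fold apart in DMSO, and for Pol II these spreads were 19.2-fold in THZ1 and 10.2-fold in DMSO.

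The zinc ribbon subunits support cleavage of the RNA at the active site. POLR2I had 144 counts in THZ1 and 88 in DMSO and was 2.35-fold higher (1.23, 0.84 to 1.64), with a ratio of 0.72 with total counts and −0.46 on the mitochondrial reference. The Pol III gene POLR3K had 235 counts in THZ1 and 203 in DMSO (0.74, 0.46 to 1.01), and the Pol I gene POLR1H had 74 in THZ1 and 136 in DMSO (−0.35, −0.78 to 0.07). POLR2I (ENSG00000105258, chromosome 19 from 36113710 to 36115346) shares 79.6% of its exonic bases with other annotated genes, including TBCB on the opposite strand, and POLR1H shares 24.5%, so both values are uncertain. Of the 31 tested members 12 share no exonic base with another gene and 9 share more than 10%. Of the 11 called members 3 share none and 5 share more than 10%.

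The 5 subunit genes common to all polymerases had ratios above 0, of which 3 stayed above it with total counts and 0 on the mitochondrial reference, and 0 were called lower or higher. POLR2K had 1069 counts in THZ1 and 815 in DMSO (0.92, 0.78 to 1.05), POLR2F had 706 in THZ1 and 581 in DMSO (0.81, 0.65 to 0.97) and POLR2L had 980 in THZ1 and 811 in DMSO (0.80, 0.66 to 0.93). POLR2E, with 546 counts in THZ1 and 714 in DMSO, and POLR2H, with 623 in THZ1 and 816 in DMSO, both had a ratio of 0.14, which is −0.38 with total counts. The median over these 5 was 0.80 on the TMM scale, 0.28 with total counts and −0.89 on the mitochondrial reference. On the TMM scale it lay above the medians of the genes specific to Pol I (−0.74, 6 genes), Pol III (−0.67, 10 genes) and Pol II (0.17, 8 genes). POLR2L was the member with the highest level per length, at 121 TPM in THZ1 and 135 TPM in DMSO. It shares 22.5% of its exonic bases with CD151.

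The remaining members are minor or accessory. POLR2M encodes Gdown1, a protein bound to part of the Pol II molecules, and had 719 counts in THZ1 and 910 in DMSO (0.19, 0.04 to 0.33). It shares 21.1% of its exonic bases with the read-through gene GCOM1, which had 4 counts in THZ1 and 29 in DMSO. The POLR2J copies were below the count minimum. POLR2J2 had 6 counts in THZ1 and 8 in DMSO. Of the 2 IDs named POLR2J3, ENSG00000285437 had 10 counts in THZ1 and 21 in DMSO, and ENSG00000168255 had 2 in THZ1 and 5 in DMSO. A difference in these was not detectable at this depth, and reads of these near-identical copies and of POLR2J may be split between them.

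Across the tested members, longer transcripts went with lower ratios. The Spearman correlation between the length of the longest annotated transcript and the ratio was −0.69 over 31 genes (Pearson r −0.66 on log2 length), beside −0.14 over 10881 tested protein-coding genes. This is a description across genes that share the same 2 libraries. Transcripts of any type were counted, so the longest one, which also gave the exon number, need not be the expressed mRNA. For POLR1H, placed in the longest class, it had 3672 bases in 2 exons. Members under 1.5 kb had a median ratio of 0.90 (5 genes: POLR2I, POLR2J, POLR2K, POLR2L and POLR3K), those of 1.5 to 3 kb a median of 0.11 (10 genes), and those of 3 kb or more a median of −0.85 (16 genes). The medians of all tested protein-coding genes in the same classes were 0.57, −0.01 and −0.15. In the longest class 7 of 16 members (43.8%) were called lower, beside 23.5% of protein-coding genes of that length. The class also held POLR2A, POLR2B and POLR2M, which had ratios above 0 on the TMM scale, and POLR3G as a higher gene. All Pol I genes except POLR1C and POLR1E were in this class, whereas of the 5 genes under 1.5 kb only POLR3K is outside Pol II. Length and polymerase are thus entangled among the members, and their parts were not tested. Genomic span (Spearman −0.36, beside 0.08 over all coding genes) and exon number (−0.46, beside 0.08) were less closely related.

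**Figure D4:**
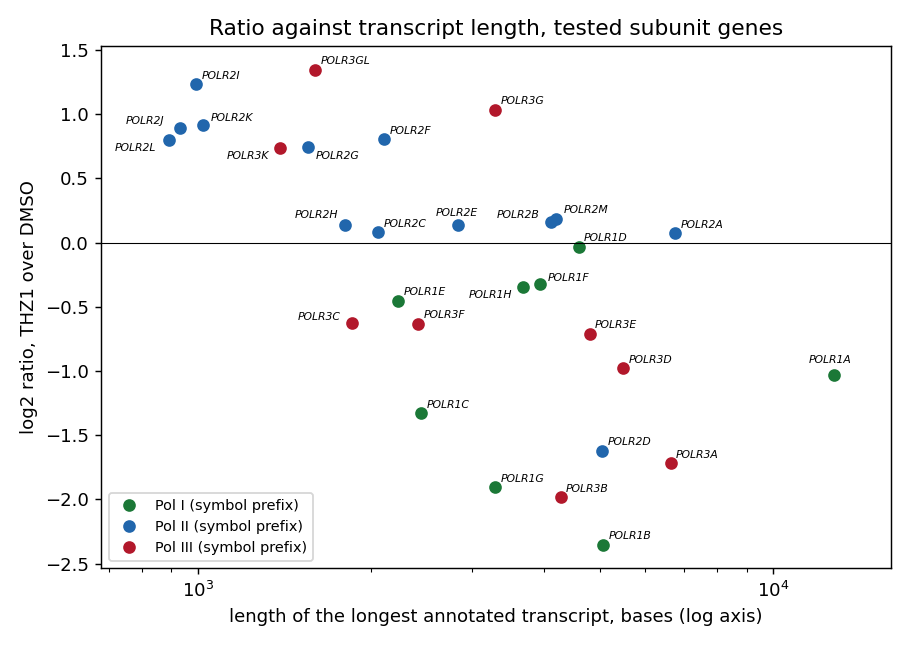
Log2 ratio, THZ1 over DMSO, against the length of the longest annotated transcript (log axis) for 30 of the 31 tested subunit genes, 1 point per gene. The 5 genes under 1.5 kb lie between 0.74 and 1.23, and the genes of 3 kb or more run from −2.35 (POLR1B) to 1.03 (POLR3G).

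The factors that work with each enzyme were compared as lists. Beside 21.3% of all tested genes called lower and 9.7% higher, 2 of 11 Pol I factors and nucleolar partners were lower and 0 higher. The ratio lay below 0 for 10 of them on the TMM scale and for all 11 with total counts or mitochondrial mRNAs, and the median was −0.56 on the TMM scale. The lower ones were TBP (99 counts in THZ1 and 440 in DMSO; −1.62), the TATA-binding protein used by all of the enzymes, and CAVIN1 (2034 in THZ1 and 6106 in DMSO; −1.06), named as a transcript release factor of Pol I and also a caveola protein. TAF1A, a subunit of the Pol I promoter factor, had a ratio of −0.99. The upstream binding factor gene UBTF had −0.92, and RRN3, which brings Pol I to its promoter, had −0.56.

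Of 14 Pol III factors 6 were called lower and 2 higher, beside 21.3% and 9.7% of all tested genes. The median ratio of these factors was −0.42. GTF3C4 (206 counts in THZ1 and 2606 in DMSO; −3.13, −3.35 to −2.93) and GTF3C5 (193 in THZ1 and 782 in DMSO; −1.49) encode subunits of TFIIIC, the factor that recognises internal promoters. BRF1 (−1.16), GTF3C2 (−1.06) and BRF2 (5 counts in THZ1 and 74 in DMSO; −3.23, −5.03 to −2.08) were also lower, as was TBP. GTF3A, the factor for the ribosomal RNA gene read by Pol III, was higher (2412 in THZ1 and 1547 in DMSO; 1.17), as was GTF3C6 (1.01), and both fall below 0 on the mitochondrial reference. CRCP, which encodes a Pol III subunit outside the POLR3 names, had −0.58, and the Pol III repressor gene MAF1 had −0.05. GTF3C6 was just past the 2-fold limit and was not called with upper-quartile scaling, TMM on all genes (0.91) or total counts (0.50). With total counts GTF3A had 0.65, and 0 of the 14 factors were called higher.

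Further groups completed the setting, beside 21.3% of all tested genes called lower and 9.7% higher. Of 5 SNAPc genes, whose complex serves both Pol II and Pol III at small nuclear RNA genes, SNAPC2 (−1.11) and SNAPC4 (−1.02, not called with DESeq2 size factors) were lower and SNAPC3 was higher. SNAPC3 had 1.15 on the TMM scale, 0.63 with total counts and −0.54 on the mitochondrial reference. Of 17 polymerase assembly genes 4 were lower and 3 higher, with a median of 0.24 (−0.28 with total counts). TTI2 (27 counts in THZ1 and 180 in DMSO; −2.19) and TTI1 (−1.52) were lower and the prefoldin gene PFDN2 was higher (1965 in THZ1 and 948 in DMSO; 1.58, and −0.11 on the mitochondrial reference). Of 10 genes of CTD phosphatases and related CTD-binding factors 4 were lower and 1, RPRD1A (4259 in THZ1 and 2341 in DMSO; 1.39), was higher. RPRD1A had 0.87 with total counts and −0.30 on the mitochondrial reference. CTDP1 (69 in THZ1 and 487 in DMSO; −2.29), CTDSP1 (−2.15) and CTDSP2 (−1.84), which encode phosphatases of the POLR2A repeat domain, were the furthest from 0. Among 5 genes of mitochondrial transcription TFB2M was lower (−1.30), while the polymerase gene POLRMT (137 counts in THZ1 and 331 in DMSO) had −0.74 and TEFM −0.82. Transcripts of Pol III itself were hardly sampled in these polyadenylated libraries. Of 14 genes on the list 13 were found by symbol. Of these 13, 9 had 0 counts in both libraries, RN7SK and RMRP among them, which allows up to 0.196 CPM in THZ1 and 0.136 CPM in DMSO at 3 counts. Only 2 were tested, BCYRN1 (2426 counts in THZ1 and 2446 in DMSO; 0.51) and RN7SL1 (55 in THZ1 and 19 in DMSO; 2.03). RN7SL2, below the count minimum, had 12 counts in THZ1 and 19 in DMSO (−0.12). The treatment of multi-mapping reads is not given, so reads of similar loci in the counts of BCYRN1, RN7SL1 and RN7SL2 cannot be told apart.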

How the data were processed

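Per the labels' protocols, TRIzol extracts were the input of KAPA mRNA HyperPrep libraries. The authors deposited unnormalized counts of reads for each Ensembl gene ID, seen from whole numbers with unequal totals. Trimmomatic 0.38, HISAT2 2.1.0, featureCounts 1.6.0 and GRCh38 are named in the submitters' processing notes. The annotation release, the strand setting and how multi-mapping reads were treated are not given in those notes or in the labels.

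Of 58884 IDs, 58611 were found in GENCODE 29 (GRCh38), which gave gene types, coordinates and lengths, and 58472 in the symbol table. TMM factors came from edgeR 4.0.16 (R 4.3.3) on the 12457 tested genes, with effective library sizes of 15320940 for THZ1 and 22049153 for DMSO. Intervals are Clopper-Pearson intervals of the THZ1 share of both counts. Reads carry no molecular identifiers, so intervals and floors cover counting error only. TPM used union exonic length from the gene annotation. Promoter sequences are from RefSeq. The calls were run on simulated counts that held counting error only, which cannot test differences between cultures. Members, lists and rules were chosen with earlier results of these data known. Every member is named except 1, which is not reported here by name, and of each partner list up to 3 genes with 100 or more counts and the ratio furthest from 0. Other list genes (UBTF, RRN3, BRF1, BRF2, GTF3A, GTF3C2, GTF3C6, CRCP, MAF1, RPRD1A, RN7SL1, RN7SL2) are named after their values were seen. Other scalings tried were DESeq2 1.42.0 size factors, the upper quartile, total counts, mitochondrial mRNAs and, added after seeing the data, TMM on all genes. Further alternatives were count minimums of 1 and 100, 5 counts added, other call limits, annotation symbols, grouping by complex, and leaving out the POLR2J family and POLR2M. Scripts ran in Python 3.11.15 with scipy 1.17.1, numpy 2.4.6 and pandas 2.3.3, and figures were drawn with matplotlib 3.10.9.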

Additional observations from a re-analysis of the deposited data

How the results depend on the processing

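Scaling sets the absolute values. With total counts the medians were −1.26 for Pol I, −0.33 for Pol II and −1.19 for Pol III, with 0 members called higher (2.95% of all tested genes). On the mitochondrial mRNAs they were −2.43, −1.504 and −2.36, with 22 members called lower (80.3% of all tested genes) and 0 higher (0.706%), and POLR2I (−0.46), POLR3G (−0.66) and POLR3GL (−0.34) turned below 0. With a 1.5-fold limit 12 members were lower (30.5% of all tested genes) and 9 higher (23.4%). With an interval bound of at least 2-fold 7 were lower (15%) and 1 higher (5.38%), since a wider or narrower limit admits more or fewer genes. POLR1A, POLR2I and POLR3G were not called with that bound. With the symbols of GENCODE 29, which leave out POLR1F, POLR1G and POLR1H, the Pol I median was −1.03. DESeq2 size factors, upper-quartile scaling, both count minimums, 5 added counts and leaving out the POLR2J family and POLR2M kept these counts within 1.5 times. With these and with grouping by complex, each median moved by less than the counting error of a single gene near the middle of its group. TMM on all genes, chosen after seeing the data, kept counts and medians within these limits too, although POLR3G was then no longer higher (0.93). POLR3D, short of the limit on the TMM scale, was called lower with the upper quartile (−1.01), TMM on all genes (−1.08), total counts (−1.495) and mitochondrial mRNAs (−2.67). No paired analysis was possible because each group has 1 library. Depth limits POLR2J2 and POLR2J3.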
